A study of Mus musculus with 6 samples.

Results

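The genes described here carry glucose through glycolysis or respond to low oxygen, and they were read in dendritic cells (DC) sorted from mouse tumors. The list has 38 members among the 23224 gene symbols of the table, and all 38 were found, with Pkm2 and Ero1l as the older symbols of Pkm and Ero1a. The members were listed by name for their function, with no threshold on any value; because the list was drawn up with results of these libraries known, its values are a description and no test is given for the list as a whole. It was divided into 22 members of the glycolytic route (glucose import, the enzyme steps, their regulators and lactate export) and 16 members of the hypoxia response (oxygen-regulated transcription factors, oxygen sensors and other targets).

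Bulk RNA sequencing covered 3 groups of 2 libraries. CD103+ DC1 and ISG+ DC came from C57BL/6 hosts labelled Rag2-/-, and a further set of ISG+ DC came from C57BL/6 hosts labelled WT. In all groups the hosts carried subcutaneous MC57-SIY tumors, grown for 7 days; MC57 cells derive from a mouse fibrosarcoma, and the SIY tag gives CD8+ T cells a known peptide to recognize. Tumors were pooled before sorting, and each sample type was collected in 2 independent experiments, so the p-values measure the spread between such pools. Neither the age of the hosts nor the sort gate of ISG+ DC is stated in the labels. Rag2 is required to assemble antigen receptors, so Rag2-/- hosts lack mature T and B cells.

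Glycolysis converts glucose to pyruvate, and pyruvate that is not burned in mitochondria is reduced to lactate and exported. Hypoxia-inducible factors (HIF) are pairs of an oxygen-regulated alpha subunit and the stable subunit Arnt. Prolyl hydroxylases mark the alpha subunits for destruction when oxygen is present, and in low oxygen the factors activate glucose transporters, glycolytic enzymes and genes such as Vegfa. In myeloid cells the alpha subunit HIF-1 alpha also accumulates on inflammatory activation, so these genes do not report oxygen alone.

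HIF dimers bind a core written ACGTG, with GCGTG as a less frequent form, and the promoters of several members hold it. RefSeq promoter windows (build GRCm38.p6) reach from 250 bases before to 50 bases after a gene's start, and 34 members had at least 1; Slc2a3, Epas1, Bnip3l and Ndrg1 had no entry. Searched on both strands, ACGTG was found in the windows of 24 of the 34 members (70.6%), against 28.7% of the 10392 genes tested that had a window and 21.8% of all genes with a window. GCGTG was found for 22 of the 34 members (64.7%), against 54.2% of those genes tested. ACGTG lies inside the E-box CACGTG, a palindrome bound by other factors, which was found for 5 of the 34 members and 11.47% of the genes tested. A match describes letters and does not show binding. The stretches below are shown because they belong to members that passed a test below (Slc2a1, Pfkfb4, Eno1, Slc16a3, Ero1l) or to classical targets of the pathway that did not (Bnip3, Pgk1, Ldha). Each runs 5′ to 3′ along the gene's strand and ends before its start, and capitals mark ACGTG, the form GCGTG and their reverse complements.
Slc2a1: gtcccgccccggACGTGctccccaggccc
Pfkfb4: ttgacggatgggGCGTGcttagtccaaaa
Eno1: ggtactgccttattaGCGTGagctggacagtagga
Slc16a3: caggcagcggtgACGTGcgcgggggacgt
Ero1l: cgcgcgccgctgCACGTccgcaggggagg
Bnip3: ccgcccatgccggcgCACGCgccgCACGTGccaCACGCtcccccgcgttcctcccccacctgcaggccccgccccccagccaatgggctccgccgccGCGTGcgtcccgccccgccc
Pgk1: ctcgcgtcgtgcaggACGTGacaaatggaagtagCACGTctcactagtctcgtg
Ldha: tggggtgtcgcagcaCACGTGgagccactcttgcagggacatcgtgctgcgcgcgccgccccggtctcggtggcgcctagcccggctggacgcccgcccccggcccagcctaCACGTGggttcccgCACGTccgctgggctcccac
On GRCm38.p6 these lie at chr4:119108697-119108725 (Slc2a1, plus strand), chr9:108991773-108991801 (Pfkfb4, plus strand) and chr4:150236463-150236497 (Eno1, plus strand). The Slc16a3 stretch lies at chr11:120949028-120949056 on the plus strand and the Ero1l stretch at chr14:45318619-45318647 on the minus strand. The Bnip3 stretch lies at chr7:138909522-138909638 on the minus strand, with Pgk1 at chrX:106186935-106186988 and Ldha at chr7:46845644-46845789 on the plus strand. In GENCODE M21 annotation of that build, 15 bases of the Slc2a1 stretch, 24 of the Pfkfb4 stretch and 4 of the Slc16a3 stretch are exonic through an alternative start, and the other stretches overlap no exon. For Slc2a1, Pfkfb4, Slc16a3 and Ero1l the stretch was cut to 1 match because a longer one touched an exon. Matches not printed include another ACGTG in Slc16a3, GCGTG in Slc2a1 and Ero1l, and GCGTG in further Eno1 windows. Vegfa counts among the members with either core through a window at a downstream start. That window lies in an exon and is not printed, while the window at its upstream start held neither.

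The 6 libraries held 6023510 to 15368616 estimated counts, and 12323 to 14051 genes had a count. CD103+ DC1 replicate 3 had the lowest total and stood apart, with 1.11% of its counts in Rpph1 against 0.303% to 0.383% in the other 5 libraries. The targeted gene Rag2 went against the simplest reading of the host labels. In hosts labelled Rag2-/- it had estimated counts of 39 and 11 (CD103+ DC1) and of 40 and 2 (ISG+ DC), while both libraries labelled WT had 0. The labels do not say which part of Rag2 is deleted, so these low counts do not check the genotype, and Rag2-/- and WT below are the hosts as labelled; the directions between hosts hold only as far as those labels do. Lineage markers separated CD103+ DC1 from ISG+ DC. Xcr1, a chemokine receptor of DC1, was at 316 and 231 CPM (counts relative to the scaled library size) in CD103+ DC1 and between 3.04 and 9.04 CPM in the ISG+ DC libraries. Itgam, which encodes CD11b, was at 84.8 and 73.7 CPM in CD103+ DC1 and between 1150 and 1435 CPM in ISG+ DC. The DC1 genes Clec9a and Itgae, which encodes CD103, were at 301 to 423 CPM in CD103+ DC1 and at most 22 CPM in ISG+ DC, and Sirpa, a marker of CD11b+ DC, was at 42.1 and 6.85 CPM against 656 to 1065 CPM. Type I interferon genes summed higher than in CD103+ DC1 only in ISG+ DC of Rag2-/- hosts, not in those of WT hosts. The summed level of 15 such genes was 3806 and 3384 CPM in CD103+ DC1, 6740 and 5732 CPM in Rag2-/- ISG+ DC, and 3001 and 3188 CPM in WT ISG+ DC, below both CD103+ DC1 libraries. Ifit1, an interferon-induced antiviral gene, was at 70.0 and 43.7 CPM, then 310 and 240 CPM, then 91.2 and 96.1 CPM.

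Summed over the glycolytic route, levels lay higher in ISG+ DC than in CD103+ DC1, and higher again in WT hosts. Its summed level, the CPM of all 22 members added up, was 4071 and 3334 CPM in CD103+ DC1, 5131 and 6367 CPM in ISG+ DC of Rag2-/- hosts, and 10038 and 12267 CPM in ISG+ DC of WT hosts. The 3 groups did not overlap. Abundant members weigh most in this sum. Gapdh, Eno1 and Pkm2 averaged 724, 349 and 435 CPM in CD103+ DC1 and 1034, 1045 and 862 CPM in Rag2-/- ISG+ DC. Between populations 4 of the 22 had a log2 fold change below 0 (Pfkp, Pfkfb3, Eno2 and Ldha). The summed level of the 16 hypoxia response members was 542 and 662 CPM in CD103+ DC1, 816 and 820 CPM in Rag2-/- ISG+ DC, and 2342 and 2752 CPM in WT ISG+ DC. Without Vegfa and Hif1a the sum of the other 14 members was 352 and 372 CPM, then 403 and 396 CPM, then 877 and 1181 CPM. The hypoxia response sum differed between hosts by more than between populations, 3.11-fold against 1.36-fold, whereas the glycolytic sum differed by 1.94-fold and 1.55-fold; these sums carry no test.

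**Figure D1:**
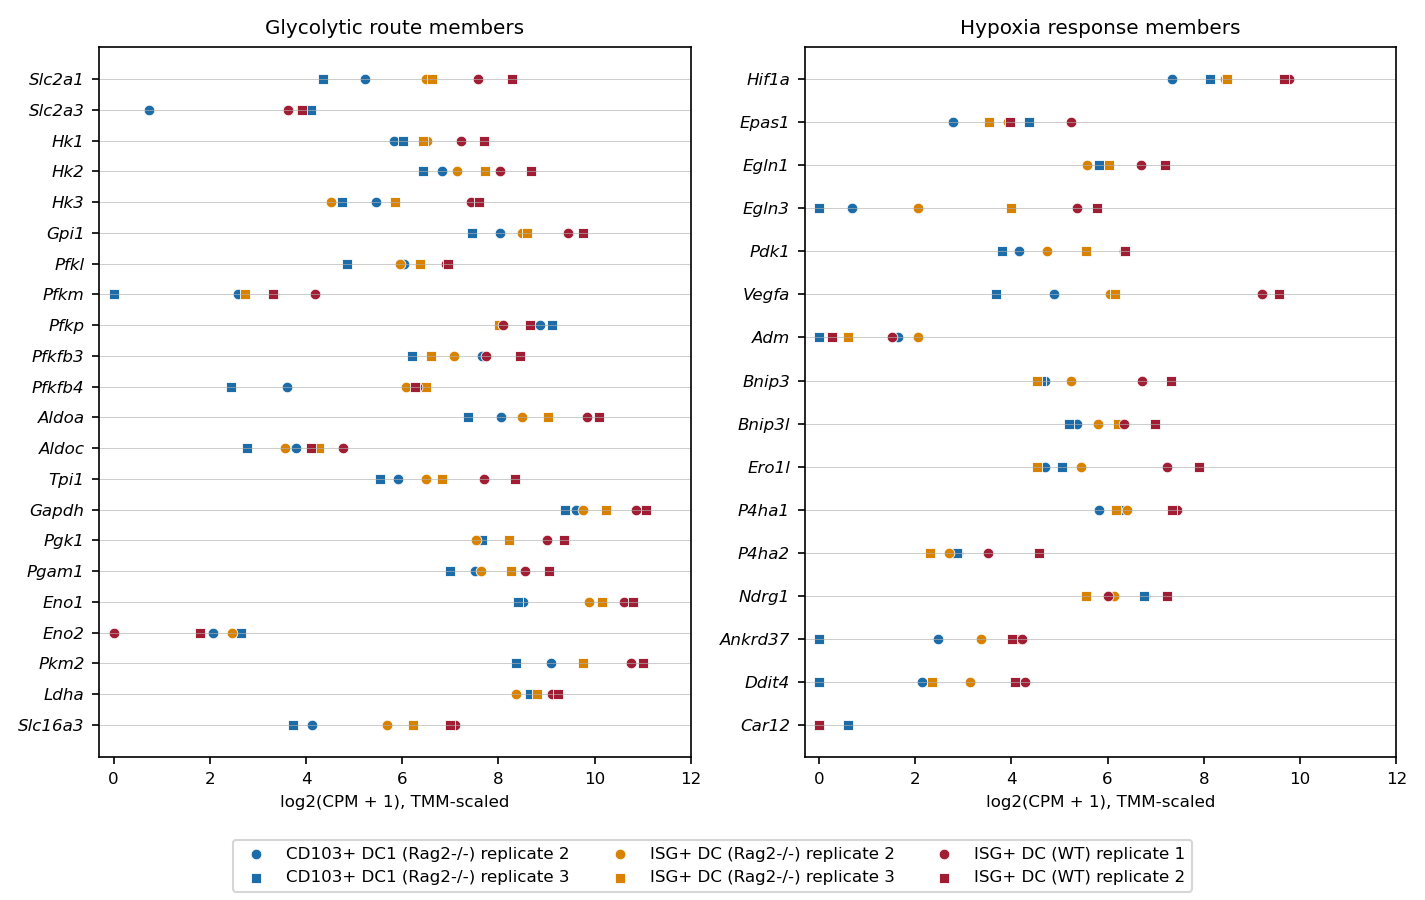
Level of each of the 38 members in each of the 6 libraries, as log2(CPM + 1) with TMM scaling, for glycolytic route members in order of the pathway (left) and hypoxia response members (right). Colors give the group and shapes the replicate. The WT ISG+ DC libraries lie to the right for most members, and Vegfa shows the widest gap between hosts among those that passed a test.

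Populations were compared first, ISG+ DC against CD103+ DC1, both from Rag2-/- hosts. The glucose transporter gene Slc2a1, the lactate exporter gene Slc16a3, the regulator Pfkfb4 and the enolase Eno1 were higher in ISG+ DC, and so was Vegfa, while the other members did not pass. Of 22 glycolytic route members tested, 4 were higher and none lower by edgeR's quasi-likelihood test adjusted over all 13223 genes, where 3.69% of all genes passed, 2.83% higher and 0.862% lower. At an unadjusted p under 0.05, 9 were higher and 1 lower, against 8.80% and 6.11% of all genes. Their median log2 fold change was 0.72, against -0.02 over all genes tested. The log2 fold change was above 0 for 29 of the 37 members tested, against 49.2% of all genes. Of 15 hypoxia response members tested, 1 was higher and none lower, with 4 higher and 0 lower at an unadjusted p under 0.05 and a median of 0.68. Groups did not overlap for 23 of the 37 members tested, against 45.9% of all genes; 20 of them were higher, against 23.9%, and 3 lower (Pfkp, P4ha2 and Ndrg1). Single libraries moved these counts. Leaving out replicate 2 of CD103+ DC1 gave 13 higher glycolytic and 4 higher hypoxia members, while higher calls over all genes went from 374 to 1291. Leaving out its replicate 3 gave 6 and 3, with 594 genes higher in all. When replicate 3 of ISG+ DC was dropped, 2 glycolytic and 0 hypoxia members were higher, with 225 genes in all.

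Slc2a1 encodes GLUT1, the basal glucose transporter. It was at 36.4 and 19.5 CPM in CD103+ DC1 and 88.8 and 97.1 CPM in Rag2-/- ISG+ DC, with no overlap. The rise was 1.72 ± 0.38 on the log2 scale (SE), or 3.3-fold (edgeR adjusted p = 0.0329). Its call was lost without ISG+ DC replicate 2 (edgeR adjusted p = 0.0718), without replicate 3 (0.108) and in a fit of only the 4 libraries compared (0.0973). Slc2a3, the transporter GLUT3, was at 0.665 and 16.1 CPM in CD103+ DC1 and at 13.9 CPM in both ISG+ DC libraries, so the groups overlapped.

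Slc16a3 encodes MCT4, which exports lactate. It was at 16.6 and 12.3 CPM in CD103+ DC1 and 50.1 and 74.0 CPM in ISG+ DC, a rise of 2.10 ± 0.38 on the log2 scale (edgeR adjusted p = 0.0119). That call was lost without ISG+ DC replicate 3 (edgeR adjusted p = 0.106) and in the fit of 4 libraries (0.0679). Ldha, which makes lactate from pyruvate, was at 402 and 403 CPM in CD103+ DC1 and 330 and 444 CPM in ISG+ DC. Its difference of -0.06 ± 0.24 was smaller than its error. The Ldha promoter holds the ACGTG core at 3 places as printed above, which does not show binding.

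Pfkfb4 makes and breaks down fructose-2,6-bisphosphate, the activator of phosphofructokinase. It was at 11.2 and 4.45 CPM in CD103+ DC1 and 66.7 and 89.3 CPM in ISG+ DC. The rise of 3.28 ± 0.51 on the log2 scale, 9.73-fold, had an edgeR adjusted p of 0.00494, and passed in all 10 alternatives run. The rise was larger without CD103+ DC1 replicate 2, at 4.12. Its relative Pfkfb3, the form with the stronger kinase activity, was at 200 and 72.5 CPM against 133 and 96.5 CPM without passing (edgeR adjusted p = 0.875). The log2 ratio of Pfkfb4 to Pfkfb3 counts within a library, in which gene length cancels between libraries, was -4.15 and -4.02 in CD103+ DC1, against -0.996 and -0.11 in ISG+ DC.

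Eno1, the main enolase outside muscle and neurons, was at 361 and 336 CPM in CD103+ DC1 and 946 and 1144 CPM in ISG+ DC. It rose by 1.58 ± 0.22 on the log2 scale, 3-fold (edgeR adjusted p = 0.00297), and passed in all 10 alternatives. Its near-identical copy Gm5506 was at 0 and 7.19 CPM in CD103+ DC1 and 4.28 and 78.5 CPM in ISG+ DC, and reads may be shared between the pair. Eno2, the neuronal form, lay between 2.48 and 5.31 CPM in these 4 libraries.

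Phosphofructokinase commits glucose to glycolysis, and its platelet-type gene Pfkp lay lower in ISG+ DC without passing. Pfkp was at 462 and 550 CPM in CD103+ DC1 and 258 and 257 CPM in ISG+ DC, a difference of -0.97 ± 0.26 that did not pass (edgeR adjusted p = 0.0822). It passed by DESeq2 (adjusted p = 0.00732). Pfkl, the liver-type gene, was at 64.2 and 27.7 CPM against 60.6 and 81.2 CPM. The log2 ratio of Pfkp to Pfkl was 2.85 and 4.31 in CD103+ DC1, against 2.09 and 1.67 in ISG+ DC, without overlap.

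Among the other enzymes, Hk2, the inducible hexokinase that traps glucose in the cell, was at 113 and 85.3 CPM against 140 and 209 CPM (edgeR adjusted p = 0.264). Gapdh was at 784 and 663 CPM against 863 and 1205 CPM (edgeR adjusted p = 0.346). Pkm2, pyruvate kinase, was at 541 and 329 CPM against 858 and 865 CPM and did not reach the threshold (0.99 ± 0.27, edgeR adjusted p = 0.0809). Hk1, Gpi1, Aldoa, Tpi1 and Pgam1 also had non-overlapping groups, higher in ISG+ DC, with log2 differences between 0.55 and 1.04, and none of them passed. Hk3 and Pgk1 overlapped.

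In the hypoxia response, Vegfa, the growth factor that drives new vessels, was the 1 member to pass between populations. It was at 28.4 and 11.8 CPM in CD103+ DC1 and 65.4 and 69.7 CPM in Rag2-/- ISG+ DC, a rise of 1.73 ± 0.38 on the log2 scale (edgeR adjusted p = 0.0313). That call was lost without ISG+ DC replicate 2 (edgeR adjusted p = 0.0569), without replicate 3 (0.0731) and in the fit of 4 libraries (0.152), and its size was 2.51 without CD103+ DC1 replicate 2. Egln3, an oxygen-sensing prolyl hydroxylase that is itself a HIF target, was at 0.598 and 0 CPM against 3.15 and 14.9 CPM, and a difference of 4.57 ± 1.12 did not pass (edgeR adjusted p = 0.053). It passed in 6 of 10 alternatives.

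Hif1a, which encodes HIF-1 alpha, was at 162 and 278 CPM in CD103+ DC1 and 348 and 355 CPM in ISG+ DC (0.68 ± 0.28, edgeR adjusted p = 0.28). Epas1, which encodes HIF-2 alpha, overlapped, at 5.92 and 19.7 CPM against 14.2 and 10.6 CPM. Bnip3, a mitophagy receptor, was at 25.0 and 23.5 CPM against 37.0 and 22.2 CPM, and the oxidoreductase Ero1l at 24.9 and 32.4 CPM against 42.7 and 22.2 CPM. Egln1, the main oxygen sensor, and P4ha1, a collagen prolyl hydroxylase, overlapped as well. Pdk1, which blocks entry of pyruvate to mitochondria, was at 16.9 and 13.0 CPM against 25.6 and 46.2 CPM and did not pass (edgeR adjusted p = 0.198). Among these members the groups overlapped for Epas1, Bnip3, Ero1l, Egln1 and P4ha1, and were apart for Hif1a and Pdk1.

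**Figure D2:**
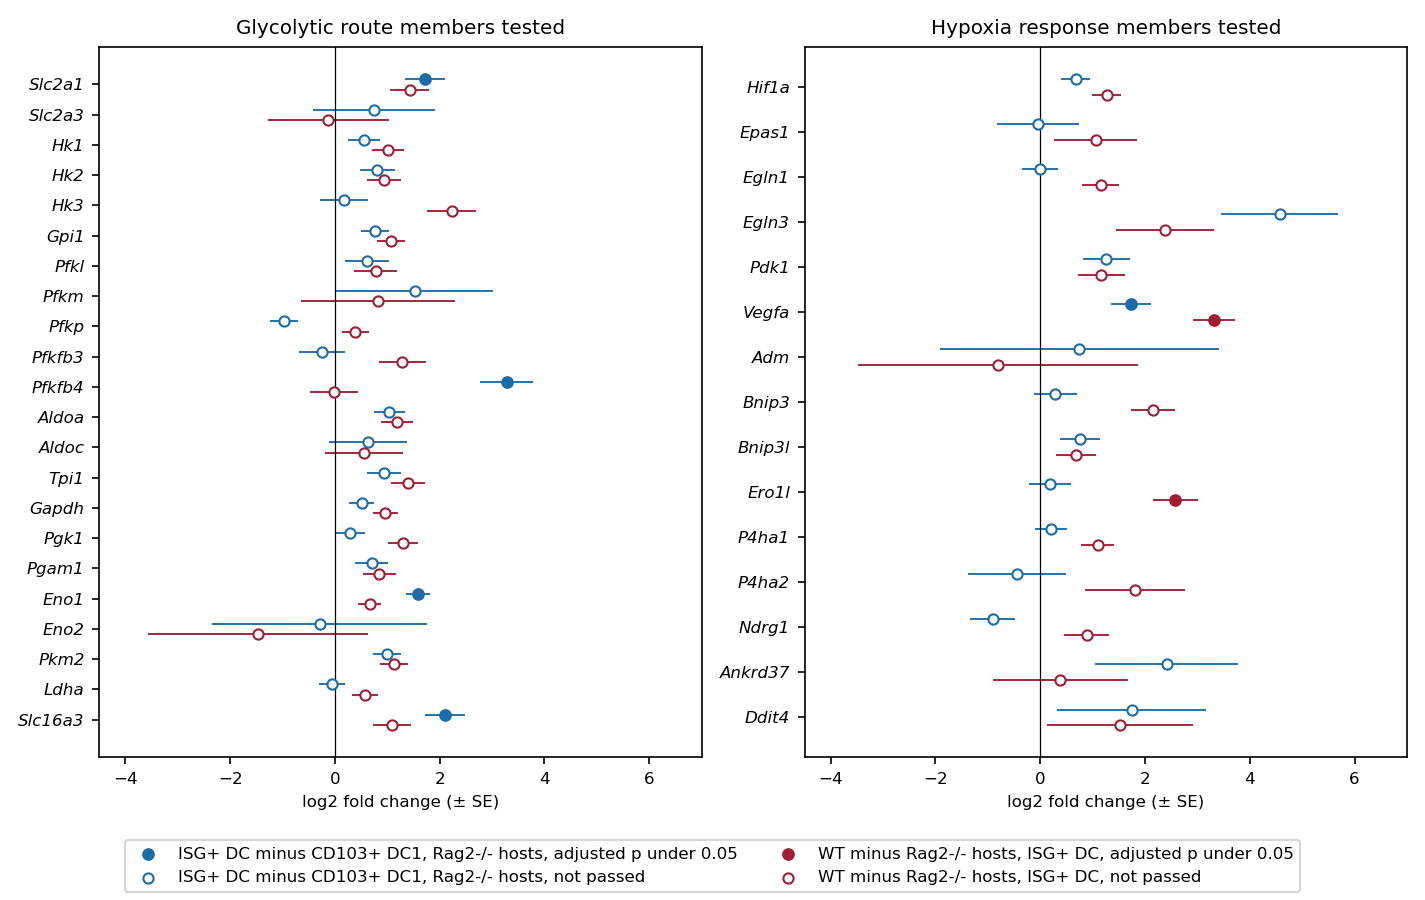
Log2 fold change with its standard error for the 37 members tested, for ISG+ DC minus CD103+ DC1 in Rag2-/- hosts (blue) and for WT minus Rag2-/- hosts in ISG+ DC (red). Filled points passed an edgeR adjusted p of 0.05; these were 5 members between populations and 2 between hosts, while most red open points also lie to the right of 0. Both comparisons use the same Rag2-/- ISG+ DC libraries.

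Hosts were compared next, within ISG+ DC; the Rag2-/- libraries are the same ones used between populations. Vegfa and Ero1l were higher in WT hosts, and the levels of most other members lay higher there without passing. Of 15 hypoxia response members tested, 2 were higher and none lower, where 0.552% of all 13223 genes tested passed, 0.287% higher and 0.265% lower. Of 22 glycolytic route members, none passed in either direction, although 15 were higher and 0 lower at an unadjusted p under 0.05, which 9.88% of all genes reached, 4.56% higher and 5.32% lower. By DESeq2 9 glycolytic members were higher, with 262 genes higher in all, against 38 genes in the main fit. Without a filter on low counts 9 were also higher, with 268 genes in all. In a fit of only the 4 ISG+ DC libraries 10 were, with 275 genes in all. The absence of glycolytic calls thus depends on the fit. The median log2 fold change was 0.95 for glycolytic route members and 1.17 for hypoxia response members, against -0.03 over all genes tested. Groups did not overlap for 29 of the 37 members tested, all higher in WT hosts. Of all genes tested, 44.5% had groups apart in either direction and 21.4% had them apart and higher in WT hosts. The log2 fold change was above 0 for 33 of the 37, against 48.2% of all genes. The 2 hypoxia calls became 1 without Rag2-/- replicate 3, 1 without WT replicate 2 and 3 without WT replicate 1, and 1 glycolytic member passed without Rag2-/- replicate 3 or WT replicate 1.

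Vegfa was at 65.4 and 69.7 CPM in Rag2-/- ISG+ DC and 590 and 757 CPM in WT ISG+ DC. The WT libraries lay far above both others, a rise of 3.32 ± 0.40 on the log2 scale or 9.97-fold (edgeR adjusted p = 0.0118). It passed in all 9 alternatives, between 3.12 and 3.48. Ero1l, which re-oxidizes the enzyme that forms disulfide bonds in secreted proteins, was at 42.7 and 22.2 CPM in Rag2-/- hosts and 150 and 237 CPM in WT hosts. It rose by 2.58 ± 0.43, 5.97-fold (edgeR adjusted p = 0.0329), and lost its call without Rag2-/- replicate 3 (edgeR adjusted p = 0.121) and without WT replicate 2 (0.0928).

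Several further hypoxia members lay higher in both WT libraries and did not pass. Bnip3 was at 37.0 and 22.2 CPM in Rag2-/- hosts and 104 and 159 CPM in WT hosts, a difference of 2.15 ± 0.42 just over the threshold (edgeR adjusted p = 0.0516). It passed in 4 of 9 alternatives, DESeq2 among them (adjusted p = 0.000185). Its relative Bnip3l, another mitophagy receptor, was at 54.7 and 73.2 CPM against 79.5 and 126 CPM. The log2 ratio of Bnip3 to Bnip3l counts was -0.56 and -1.72 in Rag2-/- hosts and 0.39 and 0.33 in WT hosts, without overlap.

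Among the oxygen-regulated factors and sensors, Hif1a was at 348 and 355 CPM in Rag2-/- hosts and 875 and 814 CPM in WT hosts (1.27 ± 0.28, edgeR adjusted p = 0.0847). Epas1 was at 14.2 and 10.6 CPM against 36.6 and 14.8 CPM. Egln1 was at 46.6 and 64.5 CPM against 103 and 144 CPM, and Egln3 at 3.15 and 14.9 CPM against 39.9 and 54.1 CPM (2.38 ± 0.94, edgeR adjusted p = 0.401). All 4 genes had non-overlapping groups, and none passed. Pdk1 at 25.6 and 46.2 CPM against 80.3 and 80.9 CPM and P4ha1 at 83.8 and 71.6 CPM against 173 and 161 CPM were also apart without passing.

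**Figure D3:**
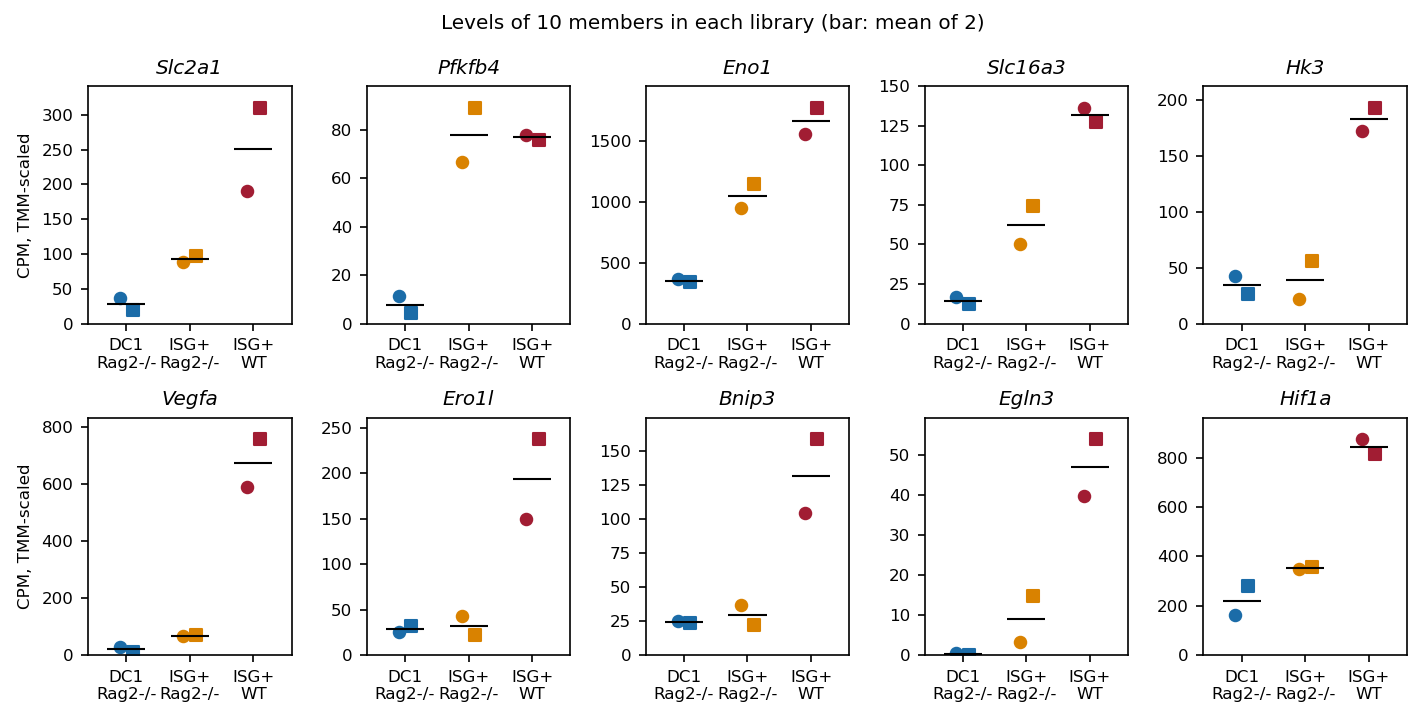
CPM with TMM scaling of 10 members in each library, by group; circles are the lower and squares the higher replicate number of a group, and bars are the means of 2 libraries. Vegfa stands at 590 and 757 CPM in WT ISG+ DC and under 70 CPM elsewhere, while Pfkfb4 overlaps between ISG+ DC of both hosts and is lower in CD103+ DC1.

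On the glycolytic route, Hk3, a hexokinase of myeloid cells, showed the greatest difference between hosts. It was at 21.8 and 56.3 CPM in Rag2-/- ISG+ DC and 172 and 193 CPM in WT ISG+ DC, a difference of 2.23 ± 0.47 that did not pass (edgeR adjusted p = 0.07) but did in 5 of 9 alternatives. The log2 ratio of Hk3 to Hk1 counts was -2.05 and -0.60 in Rag2-/- hosts and 0.22 and -0.10 in WT hosts. Hk1, the housekeeping hexokinase, was at 89.9 and 85.2 CPM against 147 and 208 CPM, and Hk2 at 140 and 209 CPM against 260 and 409 CPM.

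Slc2a1 was at 88.8 and 97.1 CPM in Rag2-/- hosts and 191 and 310 CPM in WT hosts (1.43 ± 0.37, edgeR adjusted p = 0.137). The isomerase Gpi1 was at 358 and 386 CPM against 694 and 862 CPM. Aldoa, the aldolase that splits the sugar, was at 359 and 523 CPM against 917 and 1089 CPM, and Tpi1, which interconverts its products, at 89.0 and 112 CPM against 207 and 324 CPM. Each of these 4 members was higher in both WT libraries, by 1.06 to 1.43 on the log2 scale, and none passed.

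In the lower, energy-yielding part of glycolysis, Gapdh was at 863 and 1205 CPM in Rag2-/- hosts and 1864 and 2157 CPM in WT hosts (0.96 ± 0.24, edgeR adjusted p = 0.119). Pgk1, which makes the first ATP of the pathway, was at 184 and 295 CPM against 515 and 657 CPM (1.29 ± 0.29, edgeR adjusted p = 0.0843). Pkm2 was at 858 and 865 CPM against 1716 and 2040 CPM (1.12 ± 0.27, edgeR adjusted p = 0.0994). Gapdh, which is often used as a reference gene, was highest in the WT libraries. Gapdh, Pgk1 and Pkm2 passed by DESeq2 (adjusted p = 0.00381, 0.00159 and 0.00162).

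For the remaining steps no difference between hosts passed either. Pgam1 was at 197 and 305 CPM against 374 and 528 CPM, and Eno1 at 946 and 1144 CPM against 1551 and 1770 CPM (0.67 ± 0.22, edgeR adjusted p = 0.277). Ldha was at 330 and 444 CPM against 553 and 602 CPM (0.58 ± 0.24, edgeR adjusted p = 0.442). Slc16a3 was at 50.1 and 74.0 CPM against 137 and 127 CPM (1.09 ± 0.37, edgeR adjusted p = 0.295). Pfkl was at 60.6 and 81.2 CPM against 119 and 123 CPM, Pfkp at 258 and 257 CPM against 273 and 403 CPM, and Pfkfb3 at 133 and 96.5 CPM against 214 and 347 CPM.

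Pfkfb4, which passed between populations, overlapped between hosts. It was at 66.7 and 89.3 CPM in Rag2-/- ISG+ DC and 78.1 and 75.9 CPM in WT ISG+ DC, a difference of -0.02 ± 0.46. Its log2 ratio to Pfkfb3 was -0.996 and -0.11 in Rag2-/- hosts and -1.45 and -2.19 in WT hosts. Slc2a3 likewise overlapped between hosts, at 11.3 and 14.2 CPM in WT ISG+ DC, and the log2 ratio of Slc2a3 to Slc2a1 was -2.67 and -2.81 in Rag2-/- hosts and -4.08 and -4.45 in WT hosts.

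The other members passed in neither comparison. Car12, a membrane carbonic anhydrase, had counts in CD103+ DC1 replicate 3 alone (0.514 CPM, 3 counts) and was not tested. Adm, the vasodilator adrenomedullin, lay between 0 and 3.15 CPM in all 6 libraries, and the muscle-type phosphofructokinase Pfkm between 0 and 17.3 CPM. Ankrd37 was at 4.52 and 0 CPM in CD103+ DC1, 9.38 and 15.8 CPM in Rag2-/- ISG+ DC and 17.6 and 15.2 CPM in WT ISG+ DC. Ddit4, an inhibitor of mTORC1, was at 3.39 and 0 CPM, then 7.81 and 4.08 CPM, then 18.4 and 15.9 CPM. By counting error alone, the value of 0 in CD103+ DC1 replicate 3 allows up to 0.514 CPM, the level of 3 counts, and replicate libraries varied by more than counting error. Ndrg1, a stress-induced gene, was at 109 and 107 CPM in CD103+ DC1, 69.2 and 45.9 CPM in Rag2-/- ISG+ DC and 62.9 and 150 CPM in WT ISG+ DC, apart between populations and overlapping between hosts. Aldoc, the second aldolase here, ranged from 5.82 to 26.4 CPM and P4ha2 from 3.94 to 22.7 CPM.

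The rest of the pathway was read from lists chosen by function. Of 38 other hypoxia targets tested, 3 were higher and none lower between populations (median 0.79), against 2.83% and 0.862% of all genes; by DESeq2 4 were higher. Cxcr4, a chemokine receptor, was at 5.85 and 7.02 CPM in CD103+ DC1 and 34.4 and 57.5 CPM in Rag2-/- ISG+ DC (2.84 ± 0.44, edgeR adjusted p = 0.00494). The repressor Bhlhe40 was at 163 and 138 CPM against 431 and 431 CPM (edgeR adjusted p = 0.00867), and Flt1, a receptor for VEGF-A, at 3.13 and 2.40 CPM against 12.4 and 15.3 CPM (edgeR adjusted p = 0.0465).

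Between hosts 1 of these 38 targets was higher and none lower by edgeR, against 0.287% and 0.265% of all genes, with a median of 0.75. DESeq2 called 8 higher and 1 lower, where it called 262 and 279 of all genes. The log2 fold change was above 0 for 25 and below 0 for 13. Groups were apart and higher in WT hosts for 19, against 2827 of all 13223 genes tested, and apart and lower for 8, against 3054. The 1 gene that passed by edgeR was Hmox1, the heme-degrading enzyme. Its level was 62.4 and 109 CPM in Rag2-/- hosts and 611 and 733 CPM in WT hosts (2.97 ± 0.45, edgeR adjusted p = 0.0212). Hilpda, which blocks breakdown of stored fat, was at 1.38 and 1.39 CPM against 36.6 and 84.2 CPM (5.44 ± 1.06, edgeR adjusted p = 0.0516). Plin2, a coat protein of lipid droplets, was at 86.9 and 119 CPM against 392 and 594 CPM (edgeR adjusted p = 0.103). Ppfia4, the 1 target called lower by DESeq2, was at 69.4 and 67.7 CPM against 14.4 and 22.2 CPM (edgeR adjusted p = 0.12).

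The HIF machinery itself, such as Arnt, Vhl and Hif1an, had no member of 11 that passed in either comparison, by edgeR or by DESeq2. At an unadjusted p under 0.05, 1 of the 11 was higher between populations (Ep300, edgeR adjusted p = 0.249) and 0 differed between hosts; their medians were -0.06 and 0.15. None of 18 other glycolysis genes and none of 13 genes for pyruvate entry to mitochondria passed in either comparison, by edgeR or by DESeq2. At an unadjusted p under 0.05, 1 other glycolysis gene was higher between populations (Slc2a6) and 1 lower between hosts (Eno3), and 1 pyruvate gene was lower between populations (Pdk3).

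In the pentose phosphate pathway, which branches off glycolysis and makes NADPH, 1 of 8 genes passed between populations. It was lower, against 0.862% of all genes, and none was higher, against 2.83%. At an unadjusted p under 0.05, 4 were higher and 1 lower there, against 8.80% and 6.11% of all genes, with a median of 0.61. DESeq2 called 2 higher (G6pdx and Tkt) and 1 lower. Between hosts none passed, and DESeq2 called 0. There 1 was higher and 1 lower at an unadjusted p under 0.05, against 4.56% and 5.32% of all genes. Taldo1, a transaldolase, was at 488 and 624 CPM in CD103+ DC1 and 255 and 227 CPM in Rag2-/- ISG+ DC, a fall of 1.21 ± 0.25 on the log2 scale (edgeR adjusted p = 0.0227). Tkt was at 211 and 192 CPM in CD103+ DC1 and 368 and 417 CPM in Rag2-/- ISG+ DC (edgeR adjusted p = 0.0604). G6pdx was at 33.8 and 14.7 CPM against 72.3 and 61.1 CPM (edgeR adjusted p = 0.111). The summed level of the 9 genes of the pentose phosphate pathway lay between 880 and 996 CPM in all 6 libraries. Of 13 glycogen and gluconeogenesis genes none passed by edgeR in either comparison, and DESeq2 called 2 higher in each. An unadjusted p was under 0.05 for 3 in each, against 14.9% of all genes between populations and 9.88% between hosts. Pygl, which releases glucose from glycogen, was at 11.2 and 17.1 CPM in CD103+ DC1, 37.4 and 45.0 CPM in Rag2-/- ISG+ DC and 88.7 and 168 CPM in WT ISG+ DC.

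**Figure D4:**
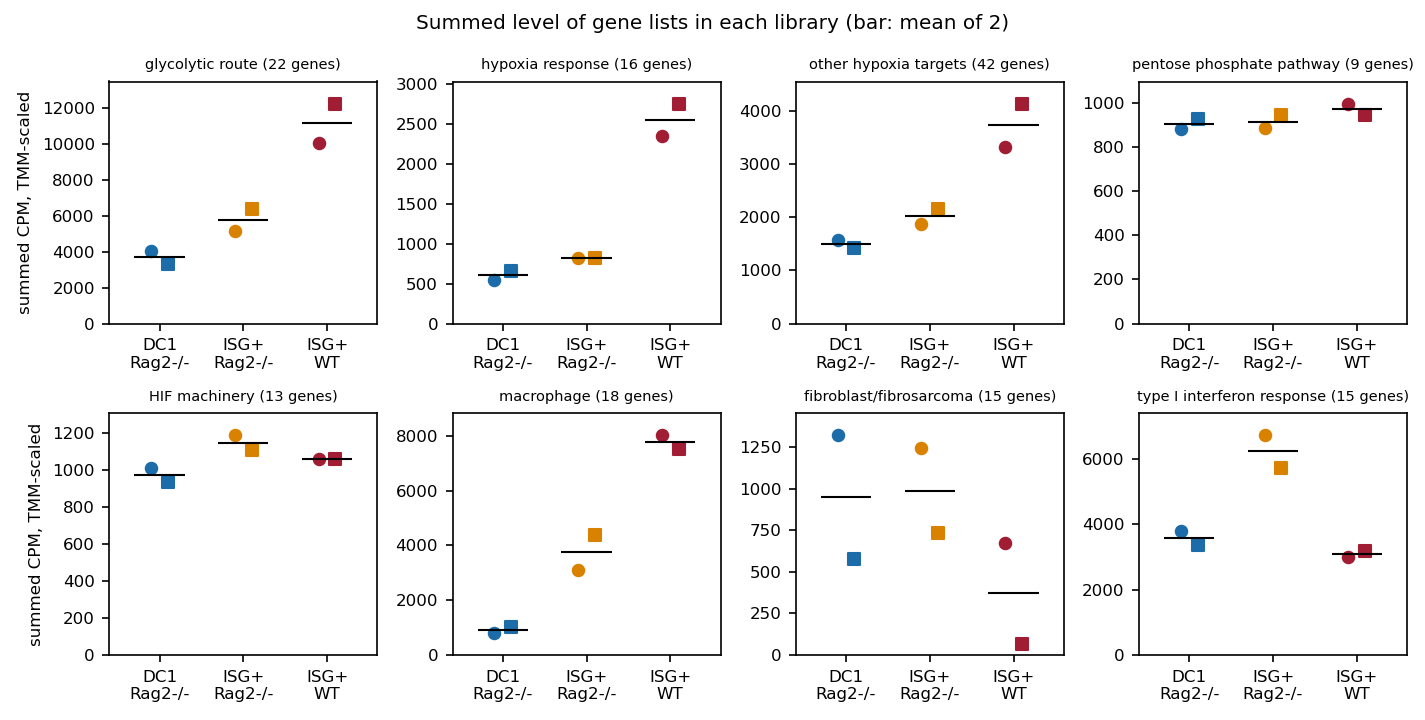
Summed CPM of 8 gene lists in each library, by group; circles are the lower and squares the higher replicate number, and bars are the means of 2 libraries. The glycolytic, hypoxia and macrophage sums are highest in WT ISG+ DC, and the pentose phosphate sums are nearly level. HIF machinery sums lie between 935 and 1191 CPM and are highest in Rag2-/- ISG+ DC. The fibroblast sums are lowest in the WT libraries on average.

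Markers of other cells moved with some of these results. The summed level of 18 macrophage markers was 793 and 1039 CPM in CD103+ DC1, 3116 and 4372 CPM in Rag2-/- ISG+ DC and 8029 and 7517 CPM in WT ISG+ DC. Of the 18, 11 were higher and none lower between populations, against 2.83% and 0.862% of all genes. Between hosts 1 was higher and none lower, against 0.287% and 0.265%, while DESeq2 called 8 higher and 1 lower. Non-overlapping groups lay higher in WT hosts for 12, against 21.4% of all genes, and lower for 3 (Fcgr1, Ly6c2 and Spp1). Csf1r, the receptor that macrophages need, was at 32.8 and 40.9 CPM, then 436 and 620 CPM, then 1243 and 1121 CPM. The part of such cells in the values of the glycolytic and hypoxia members was not tested, and in bulk libraries a change in the share of cells and a change in RNA per cell cannot be told apart.

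The summed level of 15 fibroblast and fibrosarcoma markers lay lower in WT hosts, at 1243 and 734 CPM in Rag2-/- ISG+ DC and 675 and 68.9 CPM in WT ISG+ DC. Col1a1, a collagen chain of fibroblasts, was at 131 and 115 CPM against 94.2 and 19.9 CPM. Of 14 such genes tested, none passed between hosts by edgeR, while DESeq2 called 1 lower (Pdgfra). At an unadjusted p under 0.05, 5 were lower and 1 higher, against 5.32% and 4.56% of all genes. Groups were apart and lower in WT hosts for 8, against 3054 of all 13223 genes tested, and apart and higher for 1, against 2827. The log2 fold change was below 0 for 10 and above 0 for 4, where 48.2% of all genes lay above 0. Acta2, an actin on that list, was at 1.32 and 2.26 CPM against 156 and 0.2 CPM, so the WT libraries differed from each other. S100a8, a defining neutrophil gene, was at 0 in all 6 libraries, while the sum of 9 neutrophil-list genes was 49.5 and 34.3 CPM against 148 and 166 CPM. Of the 4 neutrophil-list genes tested, 1 was higher in WT hosts and none lower, against 0.287% and 0.265% of all genes. It was Csf3r, a growth factor receptor of neutrophils, at 22.5 and 12.3 CPM against 126 and 134 CPM (edgeR adjusted p = 0.035). The log2 fold change was above 0 for 2 of the 4 and below 0 for 2. Cxcr2 lay lower with groups apart, at 16.1 and 21.5 CPM against 8.58 and 13.0 CPM. The T, B and NK cell markers summed to at most 16.6 CPM in any library. The type I interferon list, summed above, was 1.73-fold higher in Rag2-/- ISG+ DC than in CD103+ DC1. There 4 of 15 genes were higher, against 2.83% of all genes, and none lower. Between hosts 3 of 15 were lower, against 0.265% of all genes, and none higher, while DESeq2 called 8 lower. At an unadjusted p under 0.05, 12 were lower between hosts, against 5.32% of all genes. Groups were apart and lower in WT hosts for 14, against 3054 of all 13223 genes tested. Immediate-early and heat-shock genes, which can follow tissue dissociation, summed to 7994 and 8382 CPM against 9347 and 10165 CPM. Hspa8 alone gave 3345 and 3632 CPM against 3244 and 3601 CPM. Of 15 tested, 2 were higher in WT hosts (Fos and Fosb), against 0.287% of all genes, and none lower. The log2 fold change was above 0 for 9 and below 0 for 6, from 1.86 for Fos to -0.91 for Hspa1b. Between populations 4 were higher (Jun, Dusp1, Hspa1a and Hspa1b), against 2.83%, and none lower. The part of these genes was not tested either.

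The replicate numbers of the hosts overlap in number 2 alone, and the labels do not say whether a number marks an experiment. Between those libraries Vegfa was at 65.4 CPM in the Rag2-/- host and 757 CPM in the WT host, Ero1l at 42.7 and 237 CPM, and Bnip3 at 37.0 and 159 CPM. With 1 library on each side these values carry no test.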

How the data were processed

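Bulk cDNA libraries of FACS-sorted cells were made with the SMARTer Stranded Total RNAseq Pico Input kit, per the labels' protocols. Values were deposited as estimated counts for each gene symbol and library, not normalized; per the submitters' processing notes the authors used Bowtie 1.2.3 and RSEM 1.3.1 with build mm9. For annotation and strand setting the labels give nothing. RSEM divides reads among near-identical genes by a model, so values of genes with many copies (Gapdh, Eno1, Aldoa, Pgam1) are less certain. Of the values, 16.1% are not whole.

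After rounding, estimated counts went into edgeR 4.0.16 (R 4.3.3). filterByExpr kept 13223 genes, libraries were scaled by TMM, and 1 quasi-likelihood fit over all 6 libraries gave both comparisons, with 3 residual degrees of freedom per gene. All p-values are two-sided; adjusted ones follow Benjamini and Hochberg over all genes, at a threshold of 0.05. Standard errors came from the F statistic. CPM values are scaled by the TMM factors. The procedure was also run on counts simulated from the fitted spread. That run covers no outlying library such as CD103+ DC1 replicate 3, and no result here rests on it. Alternatives were RLE scaling, library totals, no filter, DESeq2 1.42.0, only the 4 libraries compared, a replicate block and leaving out each library. Members, lists and tests were chosen with earlier results of these data known. Members are given by library where they passed, where an unadjusted p was under 0.05 with groups apart, or as key steps. From other lists up to 3 genes with the smallest p were considered, and Ppfia4 and Cxcr2 were added as genes that lay lower in WT hosts. Sequences are from RefSeq (GRCm38.p6), matched by symbol or synonym; the counts were made on mm9, so no gene coordinates of the count table are given. Intervals from counts cover counting error alone.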

Additional observations from a re-analysis of the deposited data

How the results depend on the processing

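Of 513 recomputed fold changes of the 27 members followed, 422 kept direction and side of the threshold, 64 passed where they had not, 10 lost their call and 17 changed sign, none of these 17 on a call. Between populations Epas1 turned to 0.011 and Egln1 to 0.0081 with library totals, and Epas1 to 0.18 with the replicate block. With 1 library left out the differences between populations ran from -0.68 to 1.08 for Epas1, -0.26 to 0.21 for Egln1, -0.36 to 0.58 for Ero1l, -0.66 to 0.70 for Hk3, -0.78 to 0.66 for Pfkfb3, -0.035 to 0.49 for P4ha1, -0.28 to 0.14 for Ldha, -0.12 to 0.61 for Bnip3 and -0.094 to 0.59 for Pgk1. Between hosts Pfkfb4 ran from -0.22 to 0.21 in the same way.

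Between populations 374 genes were higher and 114 lower, against 671 and 416 without a filter, 679 and 399 by DESeq2, 210 and 87 in the fit of 4 libraries and 501 and 214 with the replicate block. Higher glycolytic members, 4 in number, were 2 in the fit of 4 libraries; 1 was lower without a filter and 1 by DESeq2. The 1 higher hypoxia member became 2 without a filter, 2 by DESeq2, 2 with the replicate block and 0 in the fit of 4 libraries. With 1 library left out, 225 to 1291 genes were higher and 53 to 777 lower, 2 to 13 glycolytic members higher and 0 to 1 lower, and 0 to 4 hypoxia members higher. The highest of these counts came without CD103+ DC1 replicate 2 and the lowest without ISG+ DC replicate 3; the cause was not tested. Where 1 library remained in a group, it was assumed to vary like the other groups.

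Between hosts 38 genes were higher and 35 lower, against 268 and 287 without a filter, 262 and 279 by DESeq2, and 275 and 169 in the fit of 4 libraries. Higher glycolytic members were 9, 9 and 10 there, against 0, and higher hypoxia members 4, 5 and 5, against 2. With 1 library left out, 12 to 58 genes were higher and 15 to 140 lower, 0 to 1 glycolytic and 1 to 3 hypoxia members higher. The hypoxia sum of Rag2-/- ISG+ DC, 818 CPM, was 807 with RLE scaling and 837 with library totals, and without Vegfa and Hif1a the same sum, 399 CPM, was 394 and 409. The glycolytic sums and the hypoxia sums of the other groups moved by less than 1 SD. Library totals moved the median of all genes between hosts to -0.11. Same-numbered libraries of the 2 Rag2-/- populations deviated together with r = 0.016 across genes, so the numbers were not taken as pairs; the replicate block above is therefore an alternative only. Between hosts no paired analysis was possible because they share 1 replicate number only. The lowest total, 6023510 counts in CD103+ DC1 replicate 3, limits what low members such as Adm, Ddit4 and Ankrd37 can show.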
